A study of Mus musculus with 18 samples.

Results

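The comparison described here set 6 arrays of C2C12 cells that received a short hairpin RNA (shRNA) against Mef2c beside 6 arrays of cells that received a scrambled control shRNA. These are 12 of the 18 single-colour arrays of the study, and the other 6 come from cells treated with Nup210 shRNA, whose target is an integral membrane component of the nuclear pore. C2C12 is a mouse myoblast line whose cells leave the cell cycle and fuse into multinucleate myotubes once growth serum is withdrawn. Cells of all groups, controls included, were cultured with 20% fetal bovine serum and then with 2% horse serum, infected 36 h after that change with virus carrying the hairpin and harvested 48 h after infection as myotubes. The labels call the groups Mef2c shRNA and Control scramble shRNA, and the genotype of the former Mef2c depleted. How many hairpins stood behind a label is not given in the sources used here, and the labels do not state whether a group's arrays stem from separate cultures. The p-values therefore reflect only how far these samples spread, and that spread may be technical. Each of 22180 genes was read by 1 probe set, the one with the highest mean over all 18 arrays, on the log2 scale of the deposited values, so that a difference of 1 is a 2-fold change. A gene was called, and is said to have risen or fallen, where limma's test of the difference gave a Benjamini-Hochberg adjusted p under 0.05.

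MEF2C is a transcription factor with a MADS-box DNA-binding domain that binds an AT-rich element, the MEF2 motif, near many genes of the contractile apparatus. In muscle cells MEF2 proteins work with the basic helix-loop-helix factors MyoD, Myf5, myogenin and Mrf4, and class IIa histone deacetylases hold them in check. The family members Mef2a, Mef2c and Mef2d are all expressed in differentiating myoblasts and bind the same motif.

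All 11 myotube markers examined stood above background in the control arrays, from 9.06 to 12.82, where background is the 95th percentile of 1394 olfactory and vomeronasal receptor genes, 5.47. By the same measure 3 of 11 leukocyte, 2 of 10 endothelial, 6 of 11 neuron and glia, 7 of 17 bone and cartilage, 13 of 21 adipocyte and 14 of 20 fibroblast and mesenchymal progenitor markers exceeded background, as did 20 of 23 satellite and reserve cell markers. Over all genes, 58.7% lay above background, so these marker counts alone do not show which cell types were present. Precision is set by the number of arrays: the median standard error (SE) of a log2 difference was 0.0799. Across genes, correlations between arrays of the same group lay between 0.992 and 0.995. Control arrays 4 and 6 stood apart from the other controls on a principal component that carried 13.2% of the variance. On the same component Nup210 shRNA arrays 4 and 5 lay at 21.3 and 20.3 and the other 4 between 2.67 and 5.55. Values without either pair, alternatives chosen after seeing the data, are given beside many of the results. RNA was taken from whole cultures, so fewer cells of a type and less RNA per cell cannot be told apart.

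Every Mef2c shRNA array had less Mef2c signal than every control array. The brighter of its probe sets ran from 10.10 to 10.54 (median 10.42) in controls and from 7.51 to 8.08 (median 7.97) in Mef2c shRNA arrays. The group means were 10.39 ± 0.16 (SD, n = 6) and 7.91 ± 0.21 (SD, n = 6), so 17.9% of the control signal was left. An exact permutation test, two-sided, gave p = 0.00216, the smallest that 924 splits allow, and an adjusted p of 0.00325 over 6 tests of Mef2c probe sets (exact). On the dimmer probe set Mef2c went from 7.48 to 5.63, or 27.6% of control, and against the Nup210 shRNA arrays the brighter probe set stood at 19%. The signal that remained was well above background on the brighter probe set and close to it on the dimmer.

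**Figure D1:**
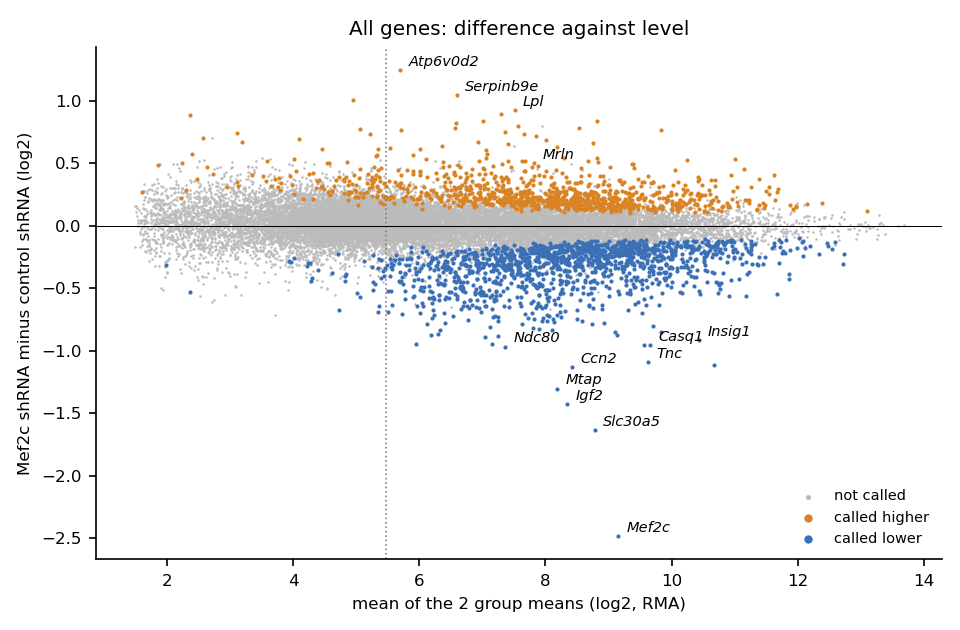
Difference between Mef2c shRNA and control shRNA (log2, vertical axis) against the mean of both group means (log2, horizontal axis) for 22180 genes, with called genes coloured and the background level of 5.47 as a dotted line. The falls reach further than the rises: Mef2c lies lowest at -2.48, followed by Slc30a5 at -1.63, while Atp6v0d2 lies highest at 1.25.

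Of all genes, 2386 (10.8%) were called: 963 (4.34%) rose and 1423 (6.42%) fell. Most changes were small, with a median size of 0.26 among called genes, and 34 rises and 124 falls reached 1.5-fold. Of the 100 genes with the smallest p, 93 were lower in Mef2c shRNA arrays. The arrays of both groups did not overlap in 1716 genes (7.74%), of which 659 (2.97%) were higher and 1057 (4.77%) lower. The split between rises and falls moved with the scaling: with each array centred on its median 625 genes rose and 1428 fell, and after renewed quantile normalization 1228 rose and 1324 fell. Without control arrays 4 and 6 there were 537 rises and 883 falls, and 57% of the calls were kept.

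The 15 largest falls and rises described next are those of called genes above background whose groups did not overlap, a rule that leaves out Casq1 (-0.95), which is given further on. Slc30a5, a zinc transporter of the secretory pathway, ran from 9.54 to 9.67 (median 9.60) in controls and from 7.82 to 8.12 (median 7.97) with Mef2c shRNA. Its log2 difference was -1.63 ± 0.055 (SE; adjusted p = 2.14e-12), which leaves 32.3% of control. The 6 arrays of each group lay close together and far from those of the other group. Igf2, an autocrine growth factor of differentiating myoblasts, went from 8.70 to 9.32 (median 9.10) in controls to 7.49 to 7.85 (median 7.61), a difference of -1.43 ± 0.097 (adjusted p = 4.77e-08). Mtap, which salvages methionine from methylthioadenosine, went from 8.70 to 8.99 (median 8.83) down to 7.48 to 7.66 (median 7.51), a difference of -1.30 ± 0.0465 (adjusted p = 3.17e-12). Neither gene's groups overlapped.

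The matrix genes among the largest falls were Ccn2, which encodes a matricellular protein induced by TGF-beta, and Tnc, which encodes tenascin C. Ccn2 ran from 8.57 to 9.34 in controls and from 7.52 to 8.21 with Mef2c shRNA (-1.13 ± 0.16 SE, adjusted p = 0.000127). Its dimmer probe set, below background, changed by -0.15. Tnc ran from 9.74 to 10.54 and from 8.38 to 9.33 (-1.09 ± 0.19, adjusted p = 0.000728). Both genes varied more between arrays than Slc30a5 or Mtap did, and in neither did the groups overlap. Genes of the secretory pathway and of metabolism followed with narrow spreads: the cyclophilin Ppic at -1.12, the reticulocalbin Rcn1 at -0.95, the tyrosine-degrading enzyme Fah at -0.95 and the lipid kinase Pi4k2b at -0.88. The other large falls were the mitotic genes Ndc80 (-0.97), Hmmr (-0.88) and Ect2 (-0.88), the sterol regulator Insig1 (-0.91), the cathepsin Ctsw (-0.89) and the lipocalin Apod (-0.94). Apod ended at 5.47, the background level itself, so that the size of its fall is uncertain.

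**Figure D2:**
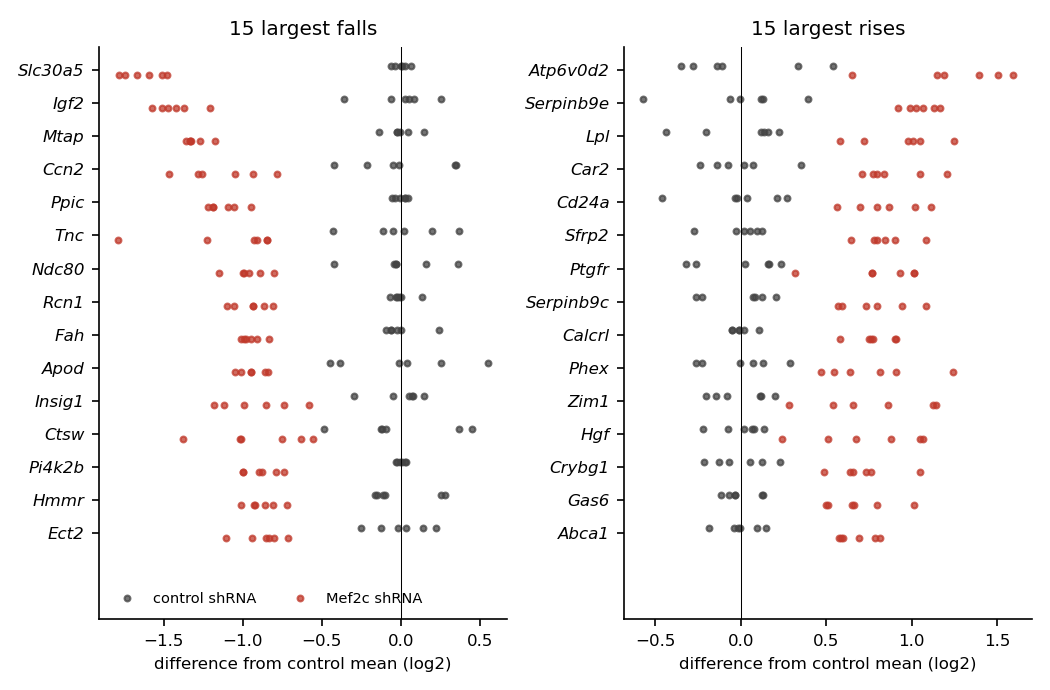
Each array's difference from the control mean (log2, horizontal axis) for the 15 largest falls after Mef2c and the 15 largest rises, with 1 point per array, control shRNA in grey and Mef2c shRNA in red. Groups do not overlap in any of these genes, which was part of the rule that chose them; the spread within a group is narrow for Slc30a5, Mtap, Ppic and Pi4k2b and wide for Tnc, Apod and Atp6v0d2.

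By the same rule the largest rises were those of a proton pump subunit, several secreted or membrane proteins and members of a serpin family. Atp6v0d2, a subunit of the vacuolar proton pump, ran from 4.73 to 5.62 (median 4.95) in controls, where its mean lay below background, and from 5.73 to 6.67 (median 6.37) with Mef2c shRNA. The difference of 1.25 ± 0.19 (SE; adjusted p = 0.000288) may be compressed by that low start. Lpl, which hydrolyses lipoprotein triglycerides, went from a range of 6.61 to 7.27 (median 7.18) to one of 7.63 to 8.30 (median 8.04), a 1.9-fold rise (adjusted p = 8.57e-05). A dimmer probe set of Lpl, below background, changed by 0.22. Sfrp2, a secreted Wnt modulator, rose 1.79-fold (6.32 to 6.72 in controls, 7.24 to 7.68 with Mef2c shRNA, adjusted p = 3.17e-06), and its dimmer probe set, below background, changed by 0.20. Cd24a, a glycosylated surface protein, rose by 0.84 on its brighter and by 0.92 on its dimmer probe set.

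Receptors and ligands were also among the rises. Calcrl, the calcitonin receptor-like receptor, rose by 0.78 ± 0.075, Ptgfr, a prostaglandin receptor, by 0.80 ± 0.17, Hgf, which activates satellite cells, by 0.74 ± 0.13, and Gas6, a ligand of TAM receptor kinases, by 0.69 ± 0.0995 (SE). The carbonic anhydrase Car2 rose by 0.89, the cholesterol exporter Abca1 by 0.67, the imprinted zinc finger gene Zim1 by 0.77, Crybg1 by 0.72 and the endopeptidase Phex, from below background, by 0.77. Serpinb9e and Serpinb9c rose by 1.05 and 0.79, but they belong to a cluster of near-identical copies whose signals cannot be told apart with certainty.

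The other members of the Mef2c family and its cofactors changed little. Mef2a ran from 11.95 to 12.11 (median 12.09) in controls and from 11.91 to 12.14 (median 12.06) with Mef2c shRNA, a difference of -0.01 ± 0.044 (SE; adjusted p = 0.916), with a 95% interval from -0.10 to 0.08. Mef2d ran from 10.19 to 10.30 and from 9.94 to 10.23, and fell by 0.16 ± 0.044 (adjusted p = 0.0195). The Mef2d ranges overlapped in part, and the call was lost in a fit of these groups alone (0.0537), without Mef2c shRNA array 2 (0.0506) and without control arrays 4 and 6 (0.0655). The acetyltransferase Ep300 rose by 0.17 (adjusted p = 0.0137, and 0.0567 without that pair of controls). Vgll4, a cofactor of TEAD proteins, rose by 0.20 (adjusted p = 0.0486), a call lost without any of 9 single arrays with adjusted p up to 0.112 and without those controls (0.0669). The list's 2 rises and 1 fall were thus all lost without that pair, though the differences did not shrink. They were then -0.17 for Mef2d, 0.17 for Ep300 and 0.24 for Vgll4. The remaining 8 of 11 measured family members and cofactors did not pass, among them the deacetylases Hdac4 at 0.09 and Hdac9 at -0.18.

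Among the muscle regulatory factors, the late factor Mrf4, encoded by Myf6, fell and the early factor Myf5 rose, while Myod1 and Myog did not pass. Myf6 ran from 5.84 to 6.30 (median 6.03) in controls and from 5.40 to 5.81 (median 5.45) with Mef2c shRNA. That is a difference of -0.52 ± 0.082 (SE; adjusted p = 0.000294) without overlap, which brought it to a mean of 5.51, near background. Myf5 ran from 7.78 to 8.07 (median 7.92) and from 8.02 to 8.42 (median 8.29), a rise of 0.33 ± 0.087 (adjusted p = 0.0192, and 0.05 without Mef2c shRNA array 5). The 2 groups overlapped slightly. Myod1 differed by 0.09 ± 0.051 (adjusted p = 0.346) and Myog by -0.16 ± 0.052 (adjusted p = 0.0506). Myog, which encodes myogenin, missed the threshold narrowly and passed it in several alternatives, for example with dim genes left out (0.0213) or without control array 3 (0.0438).

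Partners and inhibitors of these factors changed in both directions. Tcf12, an E protein that pairs with MyoD and myogenin, fell from a range of 9.91 to 10.05 to one of 9.49 to 9.65 (-0.38 ± 0.0495, adjusted p = 5.09e-05). The inhibitor of DNA binding Id2 fell by 0.20 (adjusted p = 0.00489), while Id1 at -0.18 and Id3 at 0.44 did not pass (0.0508 and 0.0617). Both passed in several alternatives, with dim genes left out at 0.0219 for Id1 and 0.0302 for Id3. Eya1, a coactivator of homeodomain factors, rose by 0.49 ± 0.10 (adjusted p = 0.0031) without overlap. In all, 2 of 22 factors rose and 3 fell, 9.09% and 13.6% of them, against 4.34% and 6.42% of all genes. The median of the 22 was -0.06 against 0.02 over all genes. The count was unstable: single arrays left out gave 1 to 4 rises (1 without Mef2c shRNA array 5, 4 without control array 5) and 3 to 5 falls (5 without control array 3), and with dim genes left out there were 4 rises and 6 falls.

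**Figure D3:**
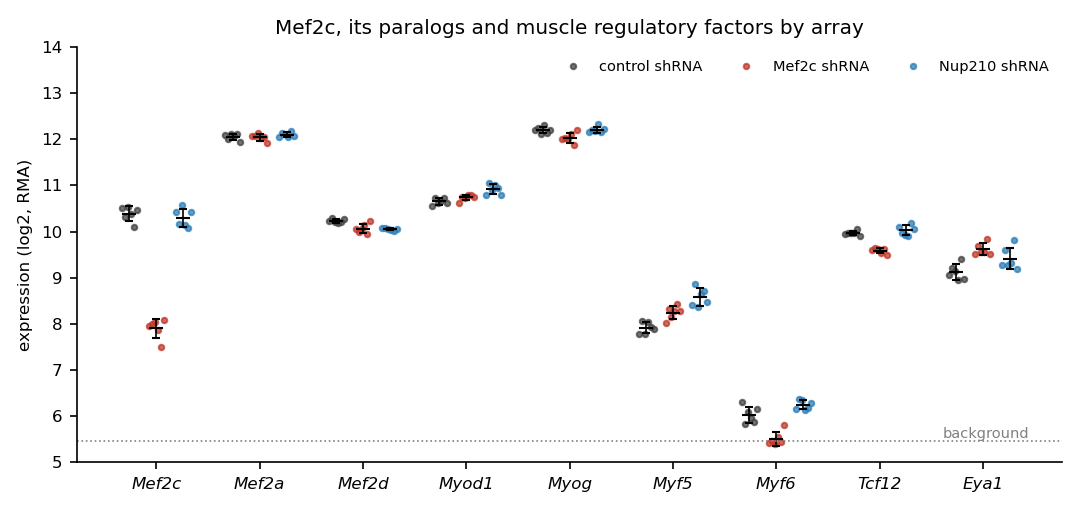
Level (log2, vertical axis) of Mef2c, Mef2a, Mef2d and 6 muscle regulatory factors in every array, with control shRNA in grey, Mef2c shRNA in red and Nup210 shRNA in blue; bars are mean ± SD of 6 arrays and the dotted line is background. Mef2c lies at a difference of -2.48, Myf6, Tcf12 and Eya1 separate by less than 0.6 without overlap, and the Mef2a ranges overlap.

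Genes published as MEF2 targets changed in both directions. Of 30 measured, 4 fell (Myoz2, Xirp1, Mb and Smyd1), 13.3% against 6.42% of all genes, 2 rose (Mrln and Klhl31), 6.67% against 4.34%, and 24 did not pass. Their median was 0.01 against 0.02 over all genes, and without control arrays 4 and 6 there were 2 falls and 1 rise. Xirp1, an actin-binding protein of the intercalated disc and myotendinous junction, ran from 9.23 to 9.47 in controls and from 8.80 to 9.16 with Mef2c shRNA (-0.30 ± 0.062 SE, adjusted p = 0.00369). Smyd1, a methyltransferase of the sarcomere, went from 8.46 to 8.60 down to 8.21 to 8.38 (-0.24 ± 0.043, adjusted p = 0.00107). Neither overlapped, while the calcineurin-binding Z-disc protein Myoz2 (-0.40, adjusted p = 0.0185) and myoglobin, Mb (-0.29, adjusted p = 0.0425), did overlap. Both of those calls were lost without control arrays 4 and 6 (0.0870 and 0.140). Mb was also lost without any of 8 single arrays, with adjusted p up to 0.101.

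Mrln, which encodes myoregulin, a micropeptide inhibitor of the sarcoplasmic calcium pump, moved the other way. It ran from 7.50 to 7.64 (median 7.57) in controls and from 7.97 to 8.12 (median 8.09) with Mef2c shRNA, a rise of 0.51 ± 0.067 (SE; adjusted p = 6.35e-05) without overlap. Klhl31 rose by 0.18 (adjusted p = 0.0221), a call lost with array centring (0.0612), without Mef2c shRNA array 2 or 4 or control array 4 or 5 (0.0501 to 0.0574) and without control arrays 4 and 6 (0.0645). Among the targets that did not pass were creatine kinase, Ckm, at -0.09, cardiac actin, Actc1, at -0.03, the leiomodin Lmod2 at 0.00, Myom1 at 0.10, Hrc at 0.05, Jun at 0.05, Srpk3 at 0.18 and the Kelch protein Klhl41 at 0.10.

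The MEF2 motif was looked for on both strands of 20611 RefSeq promoters (build GRCm38.p6) of 16990 genes tested, each from 250 bases before to 50 after a start. It was present in 2.64% of all promoters, in 20.7% of those of published targets and in 19.2% of those of thick filament genes. Among promoters of genes that fell the share was 1.58%, and among those that rose 2.1%. Of 23 genes of the muscle lists with the motif, 3 fell (Capn3, Myoz2 and the brain-type creatine kinase Ckb) and 20 did not pass, where 6.42% of all genes fell. The median difference of the 23 was 0.02, and that over all genes 0.02. The Ckb call (-0.37, adjusted p = 0.00661) was lost without control arrays 4 and 6 (0.0635), as was that of Myoz2. Over all 533 genes with the motif, 20 rose and 22 fell, where 755 rose and 1116 fell among the 16990 genes with a promoter. The 150 bases before the start are shown for Myoz2 and Capn3, which fell, and for Klhl41, which did not pass, with the MEF2 motif in capitals. A match is a description of the letters, not of a bound site.
Myoz2 (chr3:123034988-123035137, minus strand): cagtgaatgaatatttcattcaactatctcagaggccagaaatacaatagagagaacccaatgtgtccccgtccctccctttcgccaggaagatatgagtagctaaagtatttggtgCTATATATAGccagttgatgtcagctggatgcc
Capn3 (chr2:120463443-120463592, plus strand): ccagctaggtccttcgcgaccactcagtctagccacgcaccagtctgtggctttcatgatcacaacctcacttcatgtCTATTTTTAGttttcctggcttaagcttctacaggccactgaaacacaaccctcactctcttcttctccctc
Klhl41 (chr2:69669970-69670119, plus strand): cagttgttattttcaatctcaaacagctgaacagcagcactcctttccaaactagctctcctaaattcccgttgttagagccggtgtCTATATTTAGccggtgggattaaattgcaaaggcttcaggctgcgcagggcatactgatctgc
The pattern searched for is its own reverse complement, so a match on either strand is always a match on both. The motif begins 33 bases before the start in Myoz2, 72 in Capn3 and 63 in Klhl41, at 1 of the starts listed for Capn3.

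In the sarcomere a minority of genes changed, mostly downward. The thick filament and M-line list had 7 falls and 1 rise among 28 measured genes, and the list for the thin filament and Z-disc had 12 falls and 2 rises among 46, with medians of -0.07 and -0.05. The falls are 25% and 26.1% of the lists, against 6.42% of all genes, and the rises 3.57% and 4.35%, against 4.34%. Without control arrays 4 and 6 the falls were 5 and 8 and each list had 1 rise. Tested directly against Nup210 shRNA arrays, 9 thick filament and M-line genes were higher and 4 lower with Mef2c shRNA. Of the thin filament and Z-disc list 6 were higher and 7 lower. Over all genes 6.93% were higher and 7.1% lower in that test. The median differences of Nup210 shRNA from control were -0.21 and -0.11 for the 2 lists. Embryonic myosin heavy chain, Myh3, ran from 12.03 to 12.11 (median 12.05) in controls and from 11.64 to 11.69 (median 11.68) with Mef2c shRNA, a difference of -0.39 ± 0.037 (SE; adjusted p = 1.92e-06). Slow myosin heavy chain, Myh7, went from 8.93 to 9.12 (median 9.01) down to 8.37 to 8.68 (median 8.49), or -0.50 ± 0.052 (adjusted p = 4.89e-06). Neither overlapped, and perinatal myosin heavy chain, Myh8, differed by 0.03 (adjusted p = 0.881).

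Of the other filament genes, the alpha-actinin Actn2, which crosslinks actin at the Z-disc, ran from 9.47 to 9.79 in controls and from 8.83 to 9.21 with Mef2c shRNA (-0.67 ± 0.069 SE, adjusted p = 4.18e-06). Slow myosin-binding protein C, Mybpc1, fell by 0.55, the stretch-responsive ankyrin repeat protein Ankrd2 by 0.51, the Z-disc PDZ protein Ldb3 by 0.40, Obsl1 by 0.38 and skeletal actin, Acta1, by 0.16, all without overlap. Tcap, the titin cap, fell by 0.71 with overlapping ranges (adjusted p = 0.0111, and 0.0711 without control arrays 4 and 6). The rises that held without each single array and without control arrays 4 and 6 were those of the ubiquitin ligase Trim63 (0.28) and of Pdlim3 (0.18). Desmin, Des, at -0.01, the fast light chain Mylpf at -0.05 and fast troponin T, Tnnt3, at -0.01 did not pass.

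Genes of excitation-contraction coupling moved in opposite directions, with 4 falls and 5 rises among 31. The falls are 12.9% of the list, against 6.42% of all genes, and the rises 16.1%, against 4.34%. Casq1, whose product buffers calcium within the sarcoplasmic reticulum, ran from 9.81 to 10.55 (median 10.14) in controls and from 8.71 to 10.01 (median 9.05) with Mef2c shRNA. It fell by 0.95 ± 0.22 (SE; adjusted p = 0.00695), and at least 1 Mef2c shRNA array lay within the control range. Jph1, a junctophilin that ties the T-tubule to the calcium store, fell by 0.27 ± 0.053 (adjusted p = 0.00193), and Srl by 0.17. Ryr3, an embryonic isoform of the calcium release channel, rose from a range of 7.39 to 7.51 to one of 7.69 to 8.04 (0.44 ± 0.067, adjusted p = 0.000265). Stim1, the calcium sensor of store-operated entry, rose from a range of 7.59 to 7.70 to one of 7.88 to 8.03 (0.33 ± 0.0505, adjusted p = 0.000259). With Mrln these rises showed no overlap. Sln, another inhibitor of the calcium pump, was called higher at 0.62 with both groups below background, which leaves its change unmeasured.

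In the dystrophin complex and costamere 4 of 18 genes fell (22.2%, against 6.42% of all genes), all without overlap. Over all genes 4.77% were lower without overlap. Dag1, the dystroglycan precursor, ran from 11.88 to 12.03 (median 11.95) in controls and from 11.33 to 11.48 (median 11.39) with Mef2c shRNA, a difference of -0.54 ± 0.043 (SE; adjusted p = 3.4e-07). The sarcoglycan Sgcd fell by 0.64 ± 0.105, the muscle calpain Capn3 by 0.51 ± 0.094 and Sspn, which encodes sarcospan, by 0.48 ± 0.061 on its brighter and by 0.32 on its dimmer probe set. Sgcb at 0.15 and the laminin chain Lama2 at 0.25 were called higher, 11.1% of the list against 4.34% of all genes. Both calls were lost with array centring (0.0779 and 0.0540). The Lama2 call was also lost without Mef2c shRNA array 4 (0.0529) or 6 (0.0510) or control array 1 (0.0519) or 5 (0.0520). Of 25 genes of myoblast fusion 2 fell (8%, near the 6.42% of all genes), among them the M-cadherin gene Cdh15 (-0.33 ± 0.044, adjusted p = 6.23e-05), and the fusogen gene Mymk differed by 0.01 (adjusted p = 0.888).

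Genes of mitosis fell almost throughout. Of 33 measured, 30 fell and 3 did not pass, against 6.42% of all genes, and 26 showed no overlap, against 4.77%. Their median was -0.70, or -0.59 without control arrays 4 and 6, where 28 fell. Ndc80, a kinetochore protein that binds spindle microtubules, ran from 7.42 to 8.20 (median 7.81) in controls and from 6.69 to 7.04 (median 6.86) with Mef2c shRNA (-0.97 ± 0.11 SE, adjusted p = 8.74e-06). Ect2, an exchange factor that directs cytokinesis, went from 9.32 to 9.80 (median 9.58) down to 8.46 to 8.86 (median 8.73), or -0.88 ± 0.077 (adjusted p = 9.69e-07). Hmmr, Bub1 and Anln fell by 0.88, 0.87 and 0.83.

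As a list, the median deviation of mitosis genes from their control mean ran from -0.76 to -0.61 in the Mef2c shRNA arrays and from -0.21 to 0.25 in controls. Control arrays 4 and 6 held the 2 highest control values, 0.16 and 0.25. The Nup210 shRNA arrays ran from -0.14 to 0.07. Tested directly against those arrays, 30 mitosis genes were lower with Mef2c shRNA, against 7.1% of all genes. Myotube markers moved less in the same arrays, with 2 of 11 lower (Myh3 and Acta1). Satellite and reserve cell markers moved both ways, with 6 of 23 lower, Heyl and Megf10 among them, and 3 higher, Peg3 among them (1 higher without control arrays 4 and 6). The 6 and the 3 are 26.1% and 13.0% of the list, against 6.42% and 4.34% of all genes. The part of cell composition in the result was not tested.

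**Figure D4:**
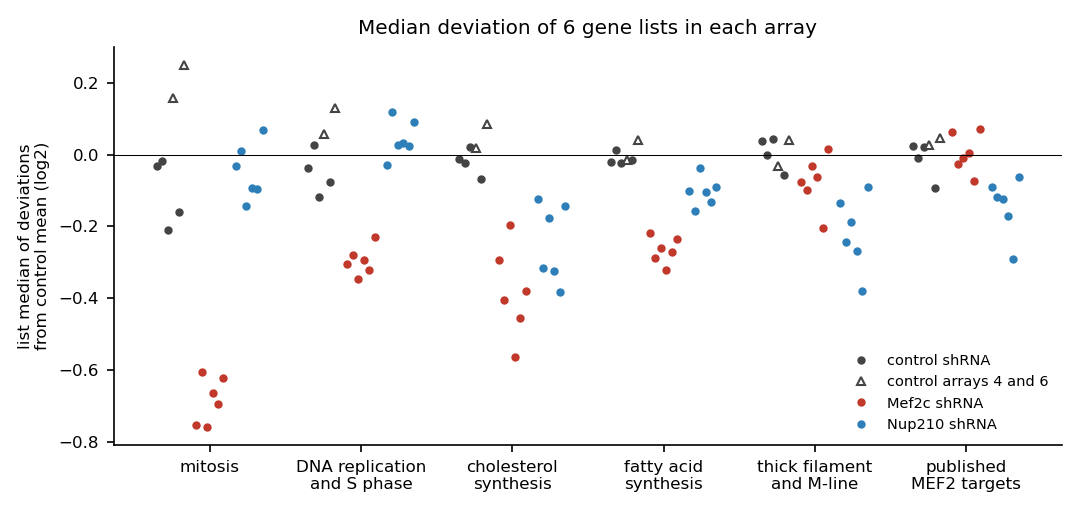
Median deviation of list members from their control mean (log2, vertical axis) in each array for 6 gene lists, with 1 point per array and control arrays 4 and 6 as open triangles. Mitosis genes lie between -0.76 and -0.61 in all 6 Mef2c shRNA arrays, while published MEF2 targets lie between -0.07 and 0.07 there, within the control range of -0.09 to 0.05 or just above it.

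Promoters of mitosis genes commonly hold a cell cycle homology region (CHR), TTTGAA, and CCAAT boxes, CCAAT, through which the DREAM and B-MYB complexes and NF-Y act. The CHR was in 80% of 30 mitosis promoters on either strand, against 15.4% of all promoters and 14.2% of those of genes that fell. The CCAAT box was in 76.7% of them, against 37.7% of all promoters and 42.7% of those of genes that fell. For Ect2 and for Top2a (topoisomerase II alpha) and Prc1 (a spindle midzone protein), the 150 bases before the start are shown with both motifs in capitals. Those are the 3 largest falls of the list with the CHR inside that stretch, and Top2a and Prc1 were chosen after their values were seen. They fell by 0.83 and 0.77.
Ect2 (chr3:27153879-27154028, minus strand): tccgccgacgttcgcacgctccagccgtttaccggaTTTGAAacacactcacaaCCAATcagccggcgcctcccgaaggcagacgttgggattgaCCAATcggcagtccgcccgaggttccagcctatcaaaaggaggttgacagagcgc
Top2a (chr11:99024190-99024339, minus strand): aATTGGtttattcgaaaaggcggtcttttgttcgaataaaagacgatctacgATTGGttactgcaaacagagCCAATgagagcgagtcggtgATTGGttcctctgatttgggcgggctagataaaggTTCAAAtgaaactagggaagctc
Prc1 (chr7:80294326-80294475, plus strand): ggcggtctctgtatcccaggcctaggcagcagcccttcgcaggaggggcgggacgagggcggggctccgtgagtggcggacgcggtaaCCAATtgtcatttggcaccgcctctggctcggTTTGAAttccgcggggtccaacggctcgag
The CHR reads TTTGAA in Ect2 and Prc1 and is on the other strand in Top2a. It begins 114, 30 and 23 bases before the start in Ect2, Prc1 and Top2a.

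DNA replication genes fell less than mitosis genes. Of 35 measured, 24 fell (68.6%, against 6.42% of all genes) and 11 did not pass, with a median of -0.28. Without control arrays 4 and 6 there were 16 falls and a median of -0.23. Mcm3 of the replicative helicase ran from 7.69 to 8.19 (median 7.87) in controls and from 7.29 to 7.55 (median 7.40) with Mef2c shRNA (-0.51 ± 0.082 SE, adjusted p = 0.000413). Mcm2 and Mcm6 of the same helicase fell by 0.48 and 0.47 and Cdc6, which loads it, by 0.48. The list's median deviation ran from -0.35 to -0.23 in Mef2c shRNA arrays and from -0.12 to 0.13 in controls, with no overlap. The E2F motif was taken as TTTGGCGC, TTTCCCGC, TTTGCCGC or TTTCGCGC on either strand. It was in 36.1% of 36 promoters of the list, in 2.85% of all promoters and in 4.75% of those of genes that fell. The 150 bases before the Mcm6 start hold it 3 times, with 2 of the matches overlapping, as shown in capitals.
Mcm6 (chr1:128359706-128359855, minus strand): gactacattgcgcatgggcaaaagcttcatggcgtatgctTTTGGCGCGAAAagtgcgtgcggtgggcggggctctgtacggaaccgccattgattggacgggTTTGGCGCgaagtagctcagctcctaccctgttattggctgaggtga
Histone and cell cycle exit genes moved in both directions. The replication-dependent histone genes H1f5 and H2bc3 fell by 0.70 and 0.53 and H1f2 rose by 0.33. The CDK inhibitor gene Cdkn1c ran from 6.99 to 7.14 in controls and from 6.33 to 6.55 with Mef2c shRNA (-0.64 ± 0.057, adjusted p = 1.01e-06), the pocket protein gene Rbl1 fell by 0.37, and the antiproliferative gene Btg2 rose by 0.22.

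Lipid synthesis genes fell together with the mitosis genes in these arrays. Of 19 genes of cholesterol synthesis, 15 fell (78.9%, against 6.42% of all genes) and 4 did not pass, with a median of -0.39. Lower without overlap were 14, against 4.77% of all genes, and 1 was higher without overlap. Insig1, which retains the SREBP cleavage complex in the endoplasmic reticulum, ran from 10.60 to 11.04 (median 10.95) in controls and from 9.71 to 10.31 (median 9.97) with Mef2c shRNA (-0.91 ± 0.12 SE, adjusted p = 4.89e-05). Lanosterol synthase, Lss, went from 8.41 to 8.76 (median 8.59) down to 7.70 to 8.12 (median 7.87), or -0.73 ± 0.080 (adjusted p = 9.25e-06). Cyp51, Nsdhl and the sterol carrier Stard4 fell by 0.64, 0.56 and 0.55.

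Fatty acid synthesis genes had 9 falls (60%, against 6.42% of all genes) and 1 rise (6.67%, against 4.34%) among 15, and a median of -0.28. Fads2, the delta-6 desaturase, ran from 10.09 to 10.43 (median 10.24) in controls and from 9.30 to 9.55 (median 9.40) with Mef2c shRNA (-0.85 ± 0.075 SE, adjusted p = 1.05e-06). The elongases Elovl6 and Elovl5 fell by 0.57 and 0.34 and fatty acid synthase, Fasn, by 0.38. The single rise, of Lpin1 (0.21, adjusted p = 0.0269), was lost with array centring (0.0625), without Mef2c shRNA array 1, 2 or 5 or control array 4 or 6 (0.0522 to 0.0688) and without both of those controls (0.186). Scd1, the stearoyl-CoA desaturase, fell by 0.30 (adjusted p = 0.0170, and 0.129 without control arrays 4 and 6). The median deviation of cholesterol genes ran from -0.56 to -0.20 in Mef2c shRNA arrays, from -0.07 to 0.09 in controls and from -0.38 to -0.12 in Nup210 shRNA arrays. Tested directly, 7 cholesterol genes were lower and 3 higher with Mef2c than with Nup210 shRNA (10 lower and 1 higher without Nup210 shRNA arrays 4 and 5). Over all genes 7.1% were lower and 6.93% higher in the direct test. The CCAAT box was in 83.3% of 18 promoters of cholesterol genes, against 37.7% of all promoters and 42.7% of those of genes that fell.

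Genes of the unfolded protein response and of the amino acid response fell in part. Of 26 genes of the former 12 fell, and of 28 of the latter, targets of the transcription factor ATF4, 14 fell, with medians of -0.14 and -0.17. The falls are 46.2% and 50% of the lists, against 6.42% of all genes. Each list had 1 rise (3.85% and 3.57%, against 4.34%). Without control arrays 4 and 6 the falls were 7 and 8; single arrays left out gave 8 to 12 and 10 to 14. The chaperone Hyou1 ran from 9.58 to 9.69 (median 9.65) in controls and from 9.09 to 9.23 (median 9.15) with Mef2c shRNA (-0.49 ± 0.040 SE, adjusted p = 4.62e-07). Hspa5, the chaperone BiP, went from 9.63 to 9.73 down to 9.35 to 9.49 (-0.25 ± 0.035, adjusted p = 9.34e-05), and the co-chaperone Dnajc3 fell by 0.26. In the ATF4 list the mitochondrial folate enzyme Mthfd2 fell by 0.46 ± 0.0645, the serine synthesis enzyme Psph by 0.41, asparagine synthetase, Asns, by 0.35 and the proline synthesis enzyme Aldh18a1 by 0.33, none with overlap. The CCAAT box was in 86.4% of 22 promoters of unfolded protein response genes, against 37.7% of all promoters and 42.7% of those of genes that fell.

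Genes of TGF-beta signalling, matrix and adhesion fell more often than they rose. Of 36 genes of the TGF-beta and BMP response 2 rose, 5.56% against 4.34% of all genes. Another 15 fell, 41.7% against 6.42% (12 without control arrays 4 and 6). Beside Ccn2 these were led by Inhba, an activin subunit (-0.60 ± 0.12 SE, adjusted p = 0.00285), Ccn1 (-0.46 ± 0.053, adjusted p = 1.66e-05), the ligand Tgfb2 (-0.45 ± 0.089) and the receptor Tgfbr2 (-0.44 ± 0.048, adjusted p = 8.56e-06). Tgfbr2 ran from 9.63 to 9.69 in controls and from 9.10 to 9.38 with Mef2c shRNA, and in none of these genes did the groups overlap. The inhibitory Smad6 rose by 0.31 (adjusted p = 0.00598) with overlapping ranges.

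Of 15 genes of the smooth muscle cytoskeleton 7 fell (46.7%, against 6.42% of all genes). Only 4 fell without Mef2c shRNA array 1, 2, 3 or 5 or control array 4 or 6, and 3 without both of those controls. Tagln, the actin-binding protein transgelin, fell by 0.80 ± 0.14 (SE; 9.86 to 10.42 in controls, 8.83 to 9.68 with Mef2c shRNA, adjusted p = 0.000926), and the tropomyosin Tpm4 by 0.35. Among 33 integrin and focal adhesion genes 9 fell (27.3%, against 6.42% of all genes), all without overlap (against 4.77%). They included the tensin Tns1 (-0.61 ± 0.070), which ran from 9.64 to 9.88 and from 9.08 to 9.33, and the filamin Flna (-0.38 ± 0.047), which ran from 10.39 to 10.51 and from 9.98 to 10.13.

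Of 34 collagen genes and their modifying enzymes 12 fell (35.3%, against 6.42% of all genes) and 3 rose (8.82%, against 4.34%). Without control arrays 4 and 6 there were 8 falls and 0 rises. The falls included Col6a3 (-0.65 ± 0.096 SE), Col8a1 (-0.59 ± 0.105) and Col18a1 (-0.48). Of 35 matrix glycoproteins and proteoglycans 6 fell and 2 rose, 17.1% and 5.71% against 6.42% and 4.34% of all genes. Fbln2, the fibulin-2 gene, ran from 9.67 to 9.79 (median 9.74) in controls and from 8.96 to 9.27 (median 9.12) with Mef2c shRNA (-0.62 ± 0.049, adjusted p = 3.59e-07), and Postn, the periostin gene, fell by 0.54 with ranges that overlapped. The small proteoglycan Dcn rose by 0.24. Among proteases and inhibitors, the metalloprotease inhibitor Timp3 fell by 0.45 and the urokinase receptor Plaur by 0.48, while the metalloprotease Mmp11 rose by 0.30 on its brighter and by 0.27 on its dimmer probe set.

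**Figure D5:**
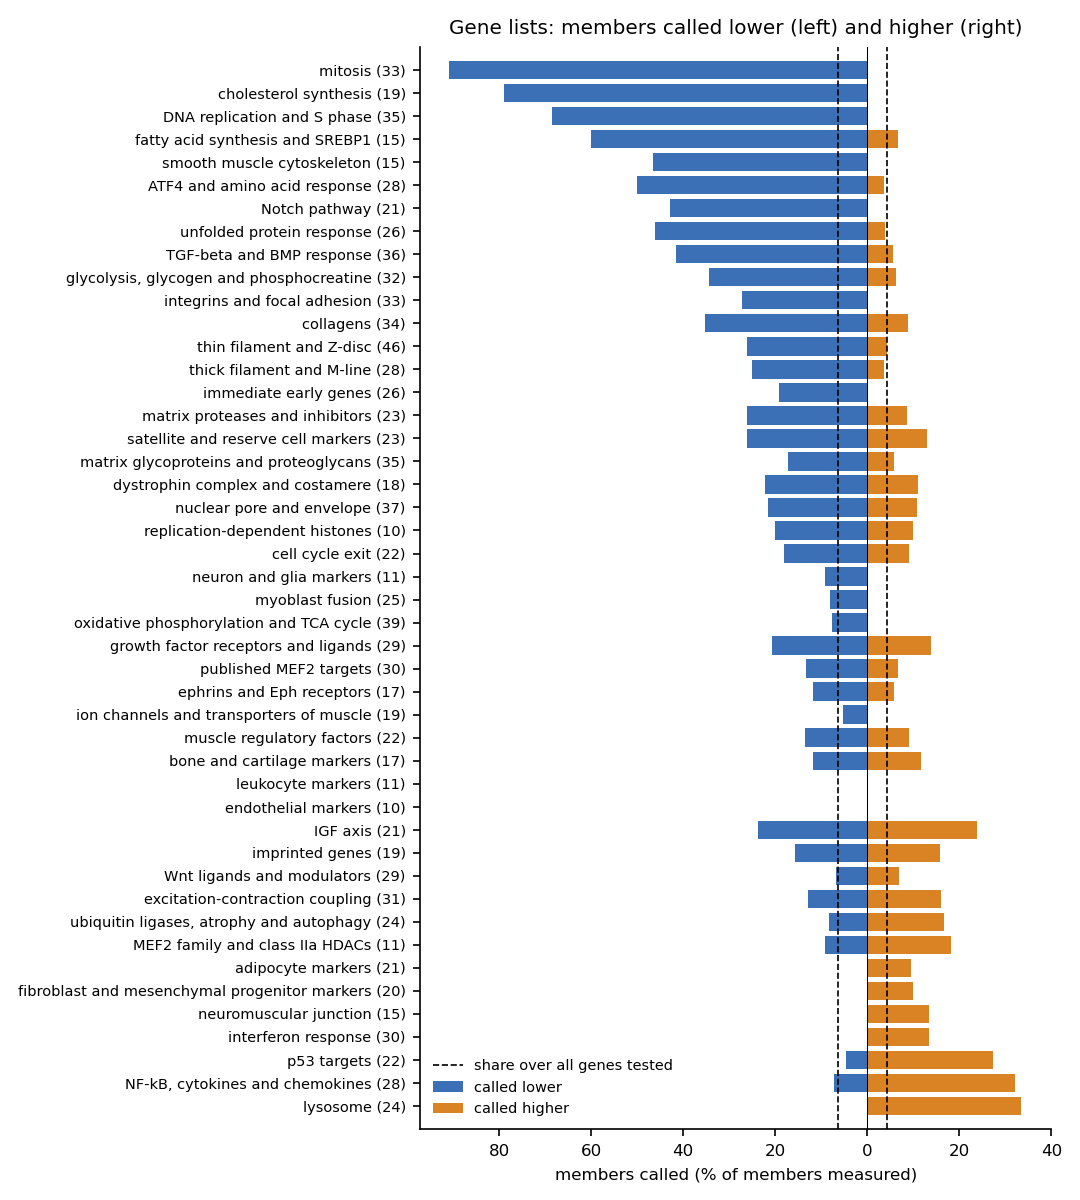
Share of measured members called lower (left, blue) and higher (right, orange) in Mef2c shRNA against control arrays for lists with at least 10 measured genes, the number measured in brackets; dashed lines give the shares over all genes tested, 6.42% and 4.34%. Mitosis, cholesterol synthesis and DNA replication stand at the top with falls, lysosome, NF-kB and p53 lists at the bottom with rises, and published MEF2 targets in the middle.

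Signalling lists held both rises and falls. In the insulin-like growth factor axis Igf2 fell as given above, its clearance receptor Igf2r by 0.18 (adjusted p = 0.00569) and the binding protein Igfbp3 by 0.44 (adjusted p = 0.0069). Igf1r, the signalling receptor, rose by 0.23 (adjusted p = 0.00999, and 0.0722 without control arrays 4 and 6). The imprinted genes Peg3 and Zim1 rose by 0.45 and 0.77, while Igf2, Cdkn1c and Mest fell, Mest by 0.43. Of 21 Notch pathway genes 9 fell, 42.9% against 6.42% of all genes (4 fell without control arrays 4 and 6). Among the 9 were the effectors Heyl (-0.46 ± 0.057 SE, adjusted p = 3.05e-05) and Hes1 (-0.33 ± 0.052) and the receptor Notch1 (-0.27 ± 0.047), none with overlap. Heyl ran from 8.39 to 8.56 in controls and from 7.86 to 8.17 with Mef2c shRNA.

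Among growth factors, the EGF receptor ligands Hbegf and Ereg fell by 0.81 ± 0.14 and 0.60 ± 0.078 (SE), Pdgfb by 0.64 ± 0.10 and Vegfa by 0.33 ± 0.049, all without overlap. The dimmer probe set of Ereg changed by -0.12. Hbegf ran from 7.89 to 8.46 in controls and from 7.07 to 7.61 with Mef2c shRNA.

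The lists in which rises outnumbered falls were smaller in effect. Of 24 lysosomal genes 8 rose and 16 did not pass, against 4.34% of all genes, with a median of 0.06 (5 rises with array centring). Beside Atp6v0d2 they included the pump subunits Atp6v0d1 and Atp6v1a at 0.29 each and the cathepsin Ctsf, which ran from 6.78 to 6.97 in controls and from 7.21 to 7.29 with Mef2c shRNA (0.34 ± 0.059 SE, adjusted p = 0.000704). Of 22 p53 targets 6 rose, 27.3% against 4.34% of all genes (4 without control arrays 4 and 6), and 1 fell, 4.55% against 6.42%. Trp53inp1 rose by 0.51 ± 0.080 and Ei24 by 0.27 ± 0.046. Trp53inp1 ran from 8.48 to 8.70 and from 8.98 to 9.29. Against Nup210 shRNA arrays Trp53inp1 differed by -0.03 (adjusted p = 0.863) and Ei24 by 0.65 (adjusted p = 3.86e-08). The p53 list's median difference from control was 0.09 with Mef2c shRNA and 0.14 with Nup210 shRNA. Of 28 NF-kB targets, cytokines and chemokines 9 were called higher, 32.1% against 4.34% of all genes. Only 3 to 5 were without Mef2c shRNA array 5 or 6 or control array 1, 4 or 6, and 2 without control arrays 4 and 6. In the same list 2 genes fell, 7.14% against 6.42% of all genes. Among them was Ptgs2, the inducible cyclooxygenase, which fell by 0.44 ± 0.083 (adjusted p = 0.00157).

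Of 32 genes of glycolysis, glycogen and phosphocreatine 2 rose, 6.25% against 4.34% of all genes. Another 11 fell, 34.4% against 6.42% (6 without control arrays 4 and 6). Among the 11 were the lactate exporter Slc16a3 (-0.38 ± 0.061 SE), muscle glycogen synthase, Gys1 (-0.34 ± 0.043), and the liver-type phosphofructokinase Pfkl (-0.28 ± 0.042). The AMP deaminase of muscle, Ampd1, rose by 0.47 ± 0.096 (5.90 to 6.31 in controls, 6.45 to 6.71 with Mef2c shRNA). Among 37 genes of the nuclear pore and envelope 8 fell (21.6%, against 6.42% of all genes) and 4 rose (10.8%, against 4.34%). Without control arrays 4 and 6 there were 7 falls and 2 rises. The falls included the pore proteins Nup43 at -0.33 and Nup93 at -0.29 and the lamin Lmnb1 at -0.31, and the rises Wfs1 at 0.44. The autophagy gene Atg12 fell by 0.56 ± 0.059 (adjusted p = 5.47e-06), from a range of 9.20 to 9.38 to one of 8.56 to 8.87.

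The Nup210 shRNA arrays show which of these differences also separate Mef2c shRNA from another hairpin that targets a gene. In that direct test 3113 genes (14%) were called, 1538 higher and 1575 lower with Mef2c shRNA, and without Nup210 shRNA arrays 4 and 5 there were 2558, 1183 higher and 1375 lower. Slc30a5 differed by -1.67 (limma adjusted p = 6.95e-13), Mtap by -1.44, Igf2 by -1.50 and Ppic by -1.06, each as far as from the control arrays or nearly so. Mitosis genes were lower there too, with Ect2 at -0.76 (adjusted p = 2.13e-06) and Top2a at -0.86. Other genes called against control did not pass against Nup210 shRNA, which does not show that the levels were alike. Both comparisons share the Mef2c shRNA arrays. The Car2 difference there was -0.01 (adjusted p = 0.956), beside 0.89 against control, and that of Hgf 0.08 (adjusted p = 0.778), beside 0.74. Myh7 differed by 0.02 (adjusted p = 0.9), beside -0.50 against control, Casq1 by -0.13 (adjusted p = 0.802), beside -0.95, and Ctsw by -0.01 (adjusted p = 0.98), beside -0.89.

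Published MEF2 targets were higher with Mef2c shRNA than with Nup210 shRNA more often than lower, 11 against 2 of 30, against 6.93% and 7.1% of all genes, and excitation-contraction coupling genes were higher in 16 of 31. Nup210 shRNA arrays 4 and 5 held the lowest values of both lists: their median deviations from the control mean were -0.17 and -0.29 for the targets, where the other 4 ran from -0.13 to -0.06, and -0.23 and -0.27 for the coupling genes, where the others ran from -0.12 to -0.05. Without that pair 9 targets were higher and 2 lower, and 12 coupling genes were higher. Other lists with falls against control varied in the direct test. Of 32 glycolysis genes 10 were higher and 3 lower, and of 15 smooth muscle cytoskeleton genes 1 and 1. Of 33 integrin and focal adhesion genes 4 and 4 were called, of 34 collagen genes 5 and 7, and of 36 TGF-beta and BMP genes 5 and 11. Their median Nup210 shRNA differences from control were, in that order, -0.13, -0.17, -0.10, -0.07 and -0.07. Hrc, whose product binds calcium inside the reticulum, differed by 0.63 between the targeting hairpins (adjusted p = 5.54e-05) and by 0.05 against control, and Myom1, an M-line protein, by 0.61 and 0.10. Among the regulators, Myf6 was lower by -0.74 and Tcf12 by -0.44 against the Nup210 shRNA arrays (adjusted p = 5.67e-06 and 6.41e-06), and Myf5 by -0.34 (adjusted p = 0.0128). The Myf5 call was lost without Nup210 shRNA arrays 4 and 5 (-0.29, adjusted p = 0.0774).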

How the data were processed

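Expression was measured on single-colour arrays, 6 per group. The deposited values are log2 expression per probe set, which the authors made with RMA and Partek, per the submitters' processing notes. The sources used here give no version, setting or genome build. Array medians of the deposited values ran from 5.48 to 5.57. Of 41345 probe sets, 23521 carried a single gene symbol in the platform annotation, 1814 several and 16010 none. Probe sets with a single symbol gave 22180 genes, and a gene with several was read by its brightest on average.

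A linear model with a mean per group was fitted to all 18 arrays with limma 3.58.1 in R 4.3.3, with no filter on low values and 15 residual degrees of freedom, and tested on simulated data. P-values were adjusted over all genes by the Benjamini-Hochberg method, and every adjusted p is limma's unless called exact. Background is the 95th percentile of the olfactory and vomeronasal receptor genes, by their mean over the 18 arrays. Replicate numbers in the labels were checked for pairing by the correlation of deviations from group means. The correlation of same-numbered Mef2c shRNA and control arrays ran from -0.028 to 0.2, so the numbers were not taken as pairs. Arrays of different number were not compared, so the check could not exclude pairing.

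The comparison and its gene lists were chosen with earlier results of these data known, and the CHR, CCAAT and E2F motifs were added after the values of the lists were known. Named genes are all members of the MEF2, regulatory factor and published target lists, the 15 largest rises and falls among called genes above background without overlap, and up to 5 called genes per direction in lists with at least 3 calls. Myotube markers were also named. Alternatives covered the samples fitted, normalization, centring, dim genes, probe set choice, priors, array weights, the replicate block, single arrays left out and, added later, control arrays 4 and 6 or Nup210 shRNA arrays 4 and 5 left out.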

Additional observations from a re-analysis of the deposited data

Results flagged for a closer look

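Single arrays stood apart from the other 5 of their group, by Dixon's test, in 18 of 334 sets of 6 values for the 167 genes the report gives values for, or 5.39%, where chance gives about 1 in 20. Mef2c shRNA array 5 accounted for 7 of them. It was lowest for Mef2c at 7.51 (others from 7.88), H1f5 at 5.27 (from 5.66), Klhl41 at 11.14 (from 11.27), Mthfd2 at 9.01 (from 9.33), Myom1 at 9.36 (from 9.42) and Srl at 10.93 (from 11.09), and highest for Mest at 11.08 (others up to 10.78). Other Mef2c shRNA arrays stood apart for Actc1 (array 2 lowest at 12.73), Myh3 (array 4 lowest at 11.64), Myf6 (array 6 highest at 5.81) and Ptgfr (array 6 lowest at 7.49).

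Among the controls, array 3 was highest for Rcn1 at 10.18, array 4 highest for Mthfd2 at 9.88 and Tgfbr2 at 9.69, and array 5 lowest for Col8a1 at 8.79 and Srl at 11.17. Control array 6 was highest for Fah at 7.88 and lowest for Igfbp3 at 8.13.

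Of 17824 probe sets without a single gene symbol, which entered no comparison above, 50 were called higher and 74 lower in Mef2c shRNA arrays, together 0.696%, and 117 of those called were above background.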

How the results depend on the processing

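The count of calls moved most with the control arrays and the threshold. Without control arrays 4 and 6, chosen after seeing the data, 1420 genes were called, 537 higher and 883 lower. At an adjusted p under 0.01 there were 1302, 423 higher and 879 lower, and with array centring 625 were called higher. Leaving out single arrays gave 1926 to 2368 calls (743 to 937 higher, 1157 to 1431 lower), 9 to 12 calls of at least 2-fold, a Mef2c difference of -2.54 to -2.40, and 2709 to 3043 calls against Nup210 shRNA (1330 to 1517 higher, 1359 to 1531 lower). The replicate block, for numbers not taken as pairs in the main fit, gave 2862 calls (1221 higher, 1641 lower), 10 of at least 2-fold. With it the Mef2c difference was -2.48 and there were 3528 calls against Nup210 shRNA (1786 higher, 1742 lower). Under it 4 muscle regulatory factors were called higher and 7 lower, Id1 at 0.0204 and Id3 at 0.000321 (limma adjusted p) among them. With the MEF2 core alone, without its outermost bases, the motif was in 7.67% of all promoters, 4.1% of those of genes that fell and 4.52% of those that rose. The rule for named genes took 289, more than the text describes. The 234 called ones kept their call in 4777 results over the alternatives against control and lost it in 366, none with a reversed direction. The 55 others gained a call in 34 and stayed without one in 1173. The cause of these changes was not tested. Changes that start or end near background are compressed, and the number of arrays limits the precision.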

Other observations

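Counts in some gene groups not described above follow, beside 6.42% of all genes called lower and 4.34% higher. Of 26 immediate early genes 5 fell (19.2%), 4 to 7 with single arrays left out and 2 without control arrays 4 and 6, with a median of -0.11. Of 30 interferon response genes 4 rose (13.3%), 3 to 6 with single arrays left out and 2 without those controls, with a median of 0.09. Of 24 genes of ubiquitin ligases, atrophy and autophagy 4 rose and 2 fell (16.7% and 8.33%), and of 17 bone and cartilage markers 2 rose and 2 fell (11.8% each), with 1 rise left without those controls. Of 9 LXR targets 2 rose and 1 fell. Of 29 Wnt ligands and modulators 2 rose and 2 fell (6.9% each), with 1 of each left without those controls, and of 21 adipocyte markers 2 rose (9.52%). Of 39 genes of oxidative phosphorylation and the TCA cycle 3 fell (7.69%), with a median of 0.02.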
